A study of Homo sapiens with 12 samples.

Results

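The replication-dependent histone genes are 73 of the 60604 gene identifiers in the count table of a study of HEK293T, an established human line derived from embryonic kidney that makes a viral large T antigen. They were taken by symbol: every protein-coding gene of the clustered linker histones (H1) and core histones (H2A, H2B, H3 and H4), and H3Y1, which encodes the primate H3 variant H3.Y. They comprise 6 H1, 17 H2A, 19 H2B, 16 H3 and 15 H4 genes. The large cluster on chromosome 6 (cluster 1) holds 55 of them, cluster 2 on chromosome 1 holds 12 and cluster 3, also on chromosome 1, holds 3. H4C16 and H2BC12L stand outside these clusters, as does H3Y1 on chromosome 5. H3Y1 is counted by its symbol, and whether it is controlled as the clustered genes are was not tested. A further 20 pseudogenes with symbols of the same families were left out.

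RNA was sequenced from 3 groups of 4 libraries. The first group received dCas9-VP160, in which a Cas9 that cannot cut DNA carries an activation domain of viral origin, together with 6 guide RNAs for CD34, all from plasmids. The second received dCas9-VP160 without guides, and the third received no plasmid. All cells were collected 48 h after transfection with a lipofection reagent in dishes of 100 mm, with 5.4 pmol of plasmid in all for the transfected cells. The cells without plasmid are called non-transfected in one label and given transfection reagents alone in another. Since every plasmid came with dCas9-VP160, effects of the plasmid and of the protein cannot be told apart. How much dCas9-VP160 plasmid went into either transfected group is not stated. Per the labels, 2 experiments on different batches of cells were each sequenced in 2 technical replicates, so n = 2 experiments per group. CD34, the target of the guides, averaged 99.3 ± 4.15 CPM (counts per 1000000, scaled by the trimmed mean of M values) with guides, 0.887 ± 0.0171 CPM with dCas9-VP160 alone and 2.06 ± 0.000694 CPM without plasmid (SD, n = 2 experiments each).

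Histone genes of these clusters supply the protein that packs newly made DNA, and their messages accumulate in S phase. Their transcription depends on NPAT, in nuclear bodies beside the clusters. Most of these messages end, without a poly(A) tail, just after a short hairpin that SLBP, the stem-loop binding protein, holds, and the U7 snRNP with LSM10, LSM11 and ZNF473 directs the cut there. Some of the genes also give polyadenylated messages from sites further downstream. The cDNA here was made from 1 ng of total RNA with a kit whose first primer, in its standard form, anneals to poly(A). What is counted is therefore the part of each histone gene's RNA that this priming reached, and how that part relates to all histone message was not tested.

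The 3′ hairpin was searched for because most messages of the clustered histone genes end just after it. The search took a perfect stem of 6 bases that begins GGC and a loop of 4 bases that begins TT, within 200 bases after the stop codon of the annotated transcripts. A match was found in 30 of the 38 members with any annotated 3′ UTR. It took only 4 forms, which differ within the stem and at the loop. The stem is in capitals, as DNA on the gene's strand, with 1 member for each.
H2AC6, chr6:26124669-26124684, plus strand: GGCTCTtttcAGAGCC
H4C8, chr6:26285131-26285146, minus strand: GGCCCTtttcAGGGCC
H2BC4, chr6:26123472-26123487, minus strand: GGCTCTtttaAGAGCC
H4C9, chr6:27139654-27139669, plus strand: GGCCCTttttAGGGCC
The first form was found in 17 members, the second in 5, the third in 5 and the fourth in 3. The GGCCCT stem was found in H4 genes and the GGCTCT stem in the H2A, H2B and H3 genes. No match was found in the annotated ends of H3Y1, H4C3, H1-4 or H2AC11, which says only that these letters are not in those windows. Coordinates are of GRCh38, from GENCODE v29. In many of these genes the annotated transcript runs past the hairpin, by 1114 bases in H2AC6, 630 in H4C8, 212 in H4C9 and 1729 in H2BC21.

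H4C3 is printed at its annotated end because it supplied 68.0% of all counts of the histone genes and the annotated transcript closes with 18 A in its last 20 bases (A in capitals).
H4C3, chr6:26104291-26104310, plus strand: AAAAAAcAAAAAcAAAAAAA
Among the 73 members, 1 other reached this share of A, H2BC8, with 20 of 20 bases at 10 bases from its end. Whether such a stretch served as a priming site was not tested.

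The promoters of the classes differ in their letters, shown by the 120 bases before the start of 1 gene each (RefSeq, GRCh38.p14). Capitals mark TATAAA and CCAAT, and also the octamer ATTTGCAT known from H2B promoters and the H1 box AAACACA. All were searched on both strands, and none overlapped another in these stretches.
H1-2, chr6:26056471-26056590, minus strand: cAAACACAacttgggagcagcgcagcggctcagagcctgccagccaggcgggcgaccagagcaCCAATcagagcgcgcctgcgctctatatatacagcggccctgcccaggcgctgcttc
H2BC12, chr6:27146859-27146978, minus strand: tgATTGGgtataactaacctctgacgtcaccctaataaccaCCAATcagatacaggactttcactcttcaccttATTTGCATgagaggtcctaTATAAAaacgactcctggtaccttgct
H4C9, chr6:27139162-27139281, plus strand: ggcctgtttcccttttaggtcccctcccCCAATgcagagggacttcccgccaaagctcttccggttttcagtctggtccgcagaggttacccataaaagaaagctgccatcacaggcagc
Of the 73 members, 66 matched a promoter window of 250 bases before to 50 bases after the start, among 27305 windows in all. H4C3 was not among them. AAACACA was in 6 of 6 H1 windows, against 5.76% of all promoters. ATTTGCAT was in 77.8% of 18 H2B and 68.8% of 16 H2A windows, in no H1 or H4 window, and in 1.80% of all promoters. Windows of some neighbouring H2A and H2B genes overlap, as for H2AC6 and H2BC4, so the same octamer can count for both classes. The window given for H3C4 is that of H2AC7, so it counts as both H3 and H2A. Duplicated genes such as H4C14 and H4C15 have windows of the same letters, and each was counted. CCAAT was in every H1, H2A, H2B and H3 window but in 23.1% of the 13 H4 windows, against 35.7% of all promoters. H4C9, printed above, is 1 of the 3 H4 genes with CCAAT, so its stretch is not typical of the class. TATAAA was in 65.2% of member windows and 12% of all promoters. These shares describe letters and show no binding.

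Near-identical copies are common in this family, and reads can be shared or lost between them. The 15 H4 genes encode 2 distinct proteins, with 14 genes identical in protein, and the 16 H3 genes encode 5. Coding sequences differ more: an H4 gene and its nearest partner of equal length shared a median of 87.7% of coding bases, H2B genes 93.0%, H2A genes 90.7% and H3 genes 88.1%. H3Y1 matched H3C1 at 106 of 136 residues. In addition 17 members, 8 of them tested, overlap another annotated gene. The kits named do not mark strand, whereas the text on the study's design calls the sequencing directional, so whether the counts used strand is not settled. H2BC15 spans H2AC15 and H2AC16, so their counts cannot be told apart with certainty.

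The 12 libraries held 6750035 to 11932244 gene counts, and the histone genes took 0.0587% to 0.125% of them. Spike-in sequences made up 0.719% and 0.404% of the counts in the libraries without plasmid of experiment 1 and at most 0.00818% elsewhere, and were left out. Of 6 markers of HEK293 cells, NEFL averaged 463 CPM, CDH2 92.5 CPM and LIN28B 37.0 CPM, whereas PAX2 was at 0.540 CPM, NEFM at 1.68 CPM and EMX2 at 2.97 CPM. Summed, these markers lay at 630 to 690 CPM with guides, 589 to 657 CPM with dCas9-VP160 alone and 480 to 521 CPM without plasmid. NEFL supplied most of each sum and rose by 0.50 on the log2 scale with dCas9-VP160 alone and 0.64 with guides, each against no plasmid. CDH2 fell by 0.34 and 0.39. Of the 6 markers, 2 were higher and 2 lower with dCas9-VP160 alone (edgeR adjusted p under 0.05), beside 26.6% and 24.6% of all genes. With guides 2 were higher and 3 lower, beside 26.7% and 25.9% of all genes. Of 8 markers of other cell types, COL1A1 reached 26.3 CPM and GFAP 2.18 CPM, and PTPRC, CD3E, ALB, PECAM1, MYOD1 and EPCAM were at or under 0.539 CPM. Their sum was 23.5 to 33.9 CPM with guides, 23.5 to 34.0 CPM with dCas9-VP160 alone and 29.4 to 34.2 CPM without plasmid. The part of these shifts in the results below was not tested.

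In replicate 2 of experiment 1 with guides, 5 histone genes (H1-3, H1-4, H2AC12, H2AC20 and H4C5) stood at the levels of experiment 2 rather than beside replicate 1. Counts of these 2 technical replicates differed with a chi-square of 4.37 per degree of freedom over genes, against 1.84 to 3.07 for the other 5 pairs. Called results on those genes are given with and without that library.

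Of the 73 genes, 37 passed the filter on low counts and were tested. The other 36 had between 0 and 41 counts summed over all 12 libraries, and 12 of them had none. The tested member with the fewest reads, H1-5, had 47 counts, and the untested member with the most, H2AC17, had 41. Only 15 members averaged at least 5 CPM. A gene that passed the filter only through the group in which it is high had to differ, so counts over the 37 are descriptions.

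Levels of different genes are compared per kilobase of annotated exon. H4C3 had the highest mean level, 1444 CPM per kilobase. H1-2, a linker histone gene, followed at 91.3 and H1-4 at 75.3 CPM per kilobase. H2BC12 led the H2B genes at 44.0, H2AC20 the H2A genes at 21.0 and H3Y1 the H3 genes at 14.8 CPM per kilobase. These are means over the 3 groups, and among the H2A genes the order depends on the group and the experiment. H2AC20 stood at 13.6 CPM per kilobase with guides, 17.6 with dCas9-VP160 alone and 30.5 without plasmid, whereas H2AC6 stood at 15.3, 20.5 and 13.3 in the same groups. By these means H2AC20 led without plasmid and H2AC6 in both transfected groups, where the libraries of the 2 genes overlap per kilobase. With dCas9-VP160 alone H2AC20 led in both libraries of experiment 1, and H2AC6 in both of experiment 2. Several of the models behind these lengths hold coding sequence alone (H1-2, H2BC12, H2AC20, H2AC12 and H1-3), which raises their value per kilobase against genes with long annotated ends such as H2AC11 (4.28) and H2BC21 (3.62). H1-3, H2AC12, H3Y1 and H4C9 lay within 13.2 to 14.9 CPM per kilobase of each other, and libraries of 1 gene varied by more than that gap.

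**Figure D1:**
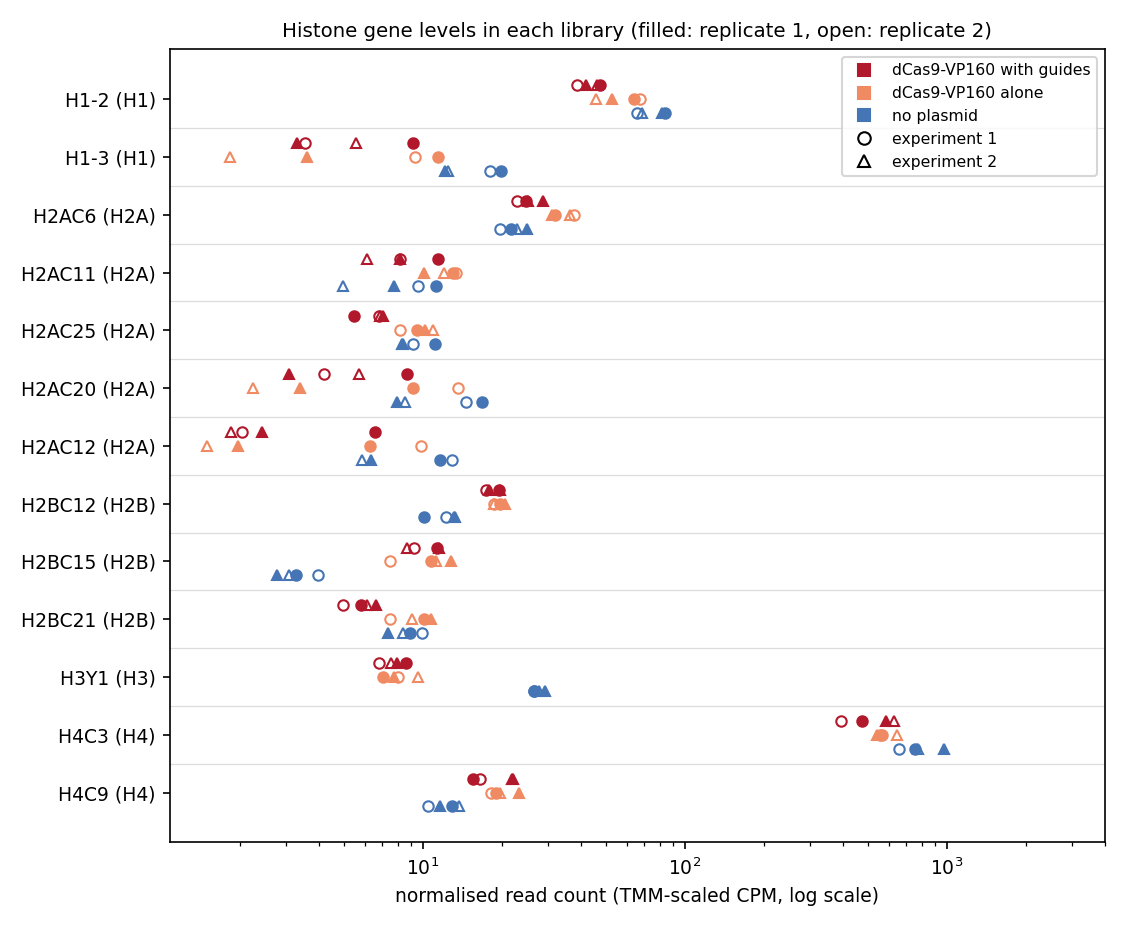
Normalised read count (TMM-scaled CPM, log axis) of 13 named histone genes in each of the 12 libraries. In each row dCas9-VP160 with guides is above, dCas9-VP160 alone in the middle and no plasmid below. Circles are experiment 1 and triangles experiment 2, and filled and open symbols are replicates 1 and 2. H3Y1 lies at 6.78 to 9.57 CPM in all 8 transfected libraries and at 26.4 to 29.2 CPM in the 4 without plasmid.

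Summed over all 73 genes, the level was 759 ± 94.5 CPM with guides, 898 ± 58.7 CPM with dCas9-VP160 alone and 1112 ± 48.8 CPM without plasmid (SD, n = 2 experiments each). In these totals all libraries without plasmid lay above the rest, while those with guides and with dCas9-VP160 alone overlapped. Between the last 2 groups the log2 ratio (guides over dCas9-VP160 alone) was -0.44 in experiment 1 and -0.051 in experiment 2. Replicate 2 of experiment 1 with guides stood at 598 CPM, against 789 CPM in replicate 1. H4C3 carries most of the sum over all members. Without it the sums were 242 ± 25.1, 316 ± 88.1 and 332 ± 65.5 CPM in the same order of groups, and the last pair differed by less than the spread between experiments. The classes did not move together. H2B genes summed to 47.8 ± 0.482 CPM with guides, 60.3 ± 0.615 CPM with dCas9-VP160 alone and 36.0 ± 0.222 CPM without plasmid, with no overlap between the libraries of any group. H3 genes, H3Y1 included, summed to 17.1 ± 0.408, 22.5 ± 0.116 and 35.5 ± 1.49 CPM, again without overlap. H3Y1 sets this order: without it the H3 genes summed to 9.38 ± 0.355 CPM with guides, 14.4 ± 0.83 CPM with dCas9-VP160 alone and 8.13 ± 0.0728 CPM without plasmid. In those sums dCas9-VP160 alone lay above both other groups in every library, and the libraries with guides overlapped those without plasmid. H4 genes summed to 551 ± 118, 624 ± 18.8 and 805 ± 108 CPM. Every library without plasmid lay above every other one in the H4 sums, and the libraries with guides and with dCas9-VP160 alone overlapped. H1 genes summed to 87.9 ± 21.5, 115 ± 67.9 and 168 ± 48.3 CPM and H2A genes to 55.6 ± 2.85, 75.7 ± 10.3 and 67.1 ± 12.2 CPM, with overlap between groups in both. No test was made of these sums, since an exact permutation of 2 against 2 experiments cannot give a two-sided p below 0.333. In bulk RNA, fewer cells of a kind (for example fewer cells in S phase) and less RNA per cell cannot be told apart.

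**Figure D2:**
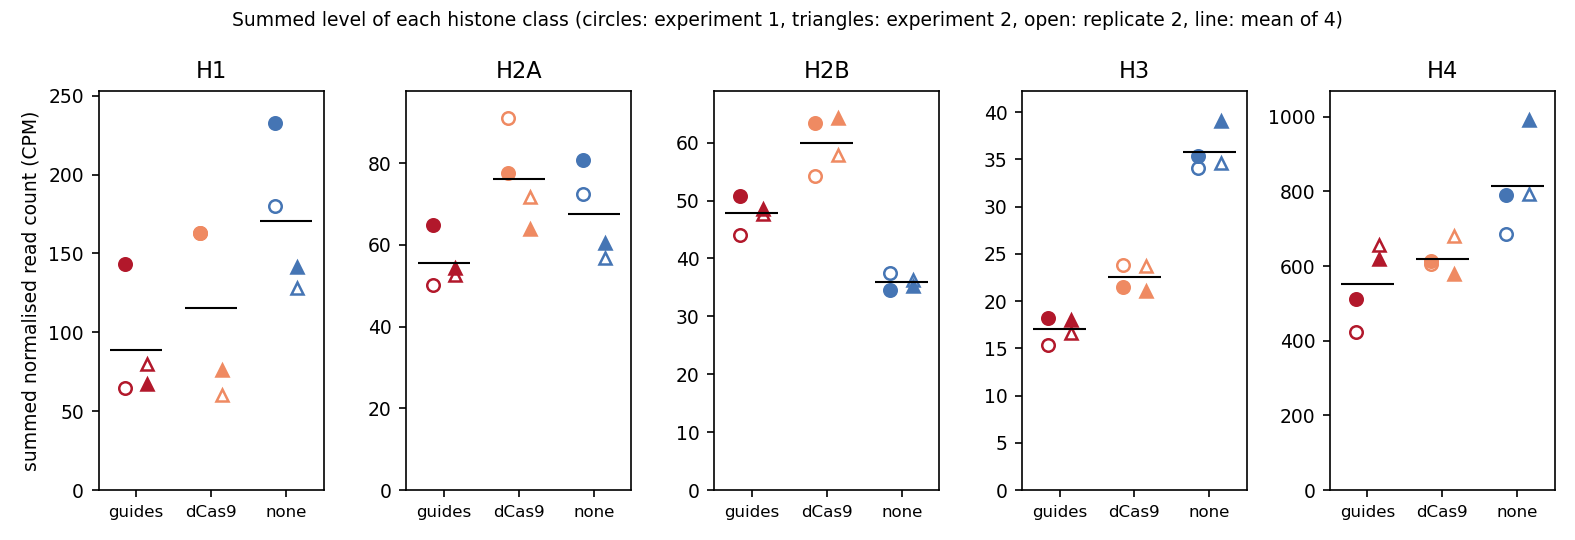
Summed normalised read count (CPM) of each histone class in each library, with the groups from left to right dCas9-VP160 with guides (guides), dCas9-VP160 alone (dCas9) and no plasmid (none). Lines are means of 4 libraries, circles experiment 1 and triangles experiment 2. The H2B sums separate all 3 groups, while the H1 sums of experiment 1 lie above those of experiment 2 in every group except for 1 library with guides.

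The first comparison asks which genes differ in cells given dCas9-VP160 without guides. H3Y1, H4C3, the linker histone genes H1-2 and H1-3, and 2 H2A genes were lower than in cells without plasmid, while 6 H2B genes and 4 genes each of H2A, H3 and H4 were higher. Of the 37 tested members, 18 were higher (48.6%) and 6 lower (16.2%) at an adjusted p under 0.05 in edgeR's quasi-likelihood test, against 26.6% higher and 24.6% lower of all 19662 genes tested. The members' median log2 fold change was 0.54, beside -0.0020 for all genes. By class, 0 of 4 tested H1 genes were higher and 2 lower, with none higher at an unadjusted p under 0.05 or in DESeq2. Of 10 H2A genes 4 were higher and 2 lower, of 11 H2B genes 6 higher and 0 lower (0 also unadjusted and in DESeq2), of 6 H3 genes 4 higher and 1 lower, and of 6 H4 genes 4 higher and 1 lower. Among the 15 members at a mean of 5 CPM or more the split was 5 higher and 6 lower, and among the 22 others 13 higher and 0 lower in edgeR, with 0 lower also at an unadjusted p under 0.05 and in DESeq2. At such low levels a gene could pass the filter through the groups in which it is high, so the split among the 22 is only a description.

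H3Y1 (chr5:17654870-17655847, minus strand) had 7.06, 8.04, 7.75 and 9.57 CPM in the 4 libraries with dCas9-VP160 alone (both replicates of experiment 1, then both of experiment 2, as for each set of 4 values given here), against 26.4, 26.5, 29.2 and 27.8 CPM in those without plasmid. The groups do not overlap in either experiment. It fell by 1.75 on the log2 scale (SE 0.098), with an edgeR adjusted p of 5.0e-14, and was called under all 23 alternative settings.

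H4C3 (chr6:26103876-26104310, plus strand), the most abundant member and an H4 gene, had 564, 553, 542 and 647 CPM with dCas9-VP160 alone, against 758, 658, 971 and 772 CPM without plasmid. Every library with dCas9-VP160 lay below every library without plasmid. It fell by 0.42 on the log2 scale (SE 0.090, edgeR adjusted p = 0.017). The call was lost in 6 of 23 settings, and over all of them the adjusted p ranged from 4.9e-27 to 0.17.

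H1-2 (chr6:26055787-26056428, minus strand), a widely expressed linker histone gene, had 64.1, 67.5, 52.8 and 45.6 CPM with dCas9-VP160 alone, against 83.9, 65.6, 81.5 and 68.4 CPM without plasmid. The groups overlap in experiment 1 and not in experiment 2. It fell by 0.38 on the log2 scale (SE 0.087, edgeR adjusted p = 0.0023), by 0.16 in experiment 1 and by 0.60 in experiment 2. The call was lost in 5 of 23 settings, with adjusted p from 5.7e-10 to 0.16.

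H1-3 (chr6:26234268-26234933, minus strand), another linker histone gene, had 11.4, 9.36, 3.6 and 1.83 CPM with dCas9-VP160 alone, against 19.8, 17.9, 12.1 and 12.5 CPM without plasmid. In both groups the first pair of values is experiment 1 and is higher than the second, yet the groups do not overlap. It fell by 1.31 on the log2 scale (SE 0.35, edgeR adjusted p = 0.039). H2AC12 (chr6:27147129-27147515, plus strand) and H2AC20 (chr1:149886975-149887364, plus strand), both H2A genes, were likewise lower in experiment 2. H2AC12 had 6.29, 9.80, 1.97 and 1.5 CPM with dCas9-VP160 alone, against 11.6, 12.9, 6.34 and 5.86 CPM without plasmid, and fell by 1.04 (SE 0.18, edgeR adjusted p = 3.7e-05). H2AC20 had 9.19, 13.6, 3.39 and 2.25 CPM, against 16.8, 14.6, 7.95 and 8.56 CPM, and fell by 0.86 (SE 0.22, edgeR adjusted p = 0.0090). Within each experiment the libraries with dCas9-VP160 lay below those without plasmid in these 3 genes. Without replicate 1 of experiment 1 with guides, which enters through the shared estimate of spread, the call of H1-3 was lost (adjusted p = 0.18), as was that of H2AC20 (0.20), and the count of lower members was 3 in place of 6. Without replicate 2 of that experiment the adjusted p was 0.040 for H1-3, 3.3e-04 for H2AC20 and 1.1e-05 for H2AC12, and the count was 6.

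Among the higher members, H2BC15 (chr6:27837760-27865798, plus strand), an H2B gene, had 10.7, 7.46, 12.8 and 11.2 CPM with dCas9-VP160 alone, against 3.27, 3.98, 2.77 and 3.07 CPM without plasmid. The groups do not overlap. It rose by 1.70 on the log2 scale (SE 0.16, edgeR adjusted p = 7.7e-10). Of the genes it overlaps, H2AC15 was also called higher and H2AC16 was not called. H2BC12 (chr6:27146418-27146798, minus strand), another H2B gene, had 19.7, 18.7, 20.6 and 18.7 CPM, against 10.1, 12.3, 13.1 and 13.2 CPM, and rose by 0.67 (SE 0.096, edgeR adjusted p = 1.5e-06). H2AC6 (chr6:26124145-26139116, plus strand) had 31.8, 37.7, 31.1 and 36.5 CPM, against 21.6, 19.6, 24.9 and 22.9 CPM, and rose by 0.63 (SE 0.078, edgeR adjusted p = 1.4e-07). H4C9 (chr6:27138588-27139881, plus strand), an H4 gene, had 19, 18.1, 23.2 and 19.7 CPM, against 12.9, 10.4, 11.6 and 13.7 CPM, and rose by 0.72 (SE 0.098, edgeR adjusted p = 7.6e-07). Every library with dCas9-VP160 lay above every one without in these genes, and all 4 were called under all 23 alternative settings. H2AC11 (chr6:27133042-27135291, plus strand) rose by 0.58 (SE 0.12, edgeR adjusted p = 3.1e-04), with 13.0, 13.3, 10.0 and 12 CPM, against 11.2, 9.54, 7.72 and 4.93 CPM, so that its groups overlap across experiments but not within them. H4C9 thus rose while H4C3, another H4 gene, fell.

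The other 13 members called higher averaged under 5 CPM and rose by 0.61 to 3.06 on the log2 scale. H2BC17 is the extreme, with 12, 4, 9 and 9 counts with dCas9-VP160 alone against 1 count in each of the 4 libraries without plasmid, so its fold rests on few reads. The tested members with an annotated 3′ UTR of at least 200 bases, a limit chosen after the values were seen, numbered 20, of which 12 were higher and 1 (H3Y1) lower, with a median log2 fold change of 0.62. Among the 17 with a shorter one or none, 6 were higher and 5 lower, with a median of -0.17. DESeq2 called 11 members higher and 4 lower in this comparison, beside 3327 higher and 2529 lower of 19553 genes.

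**Figure D3:**
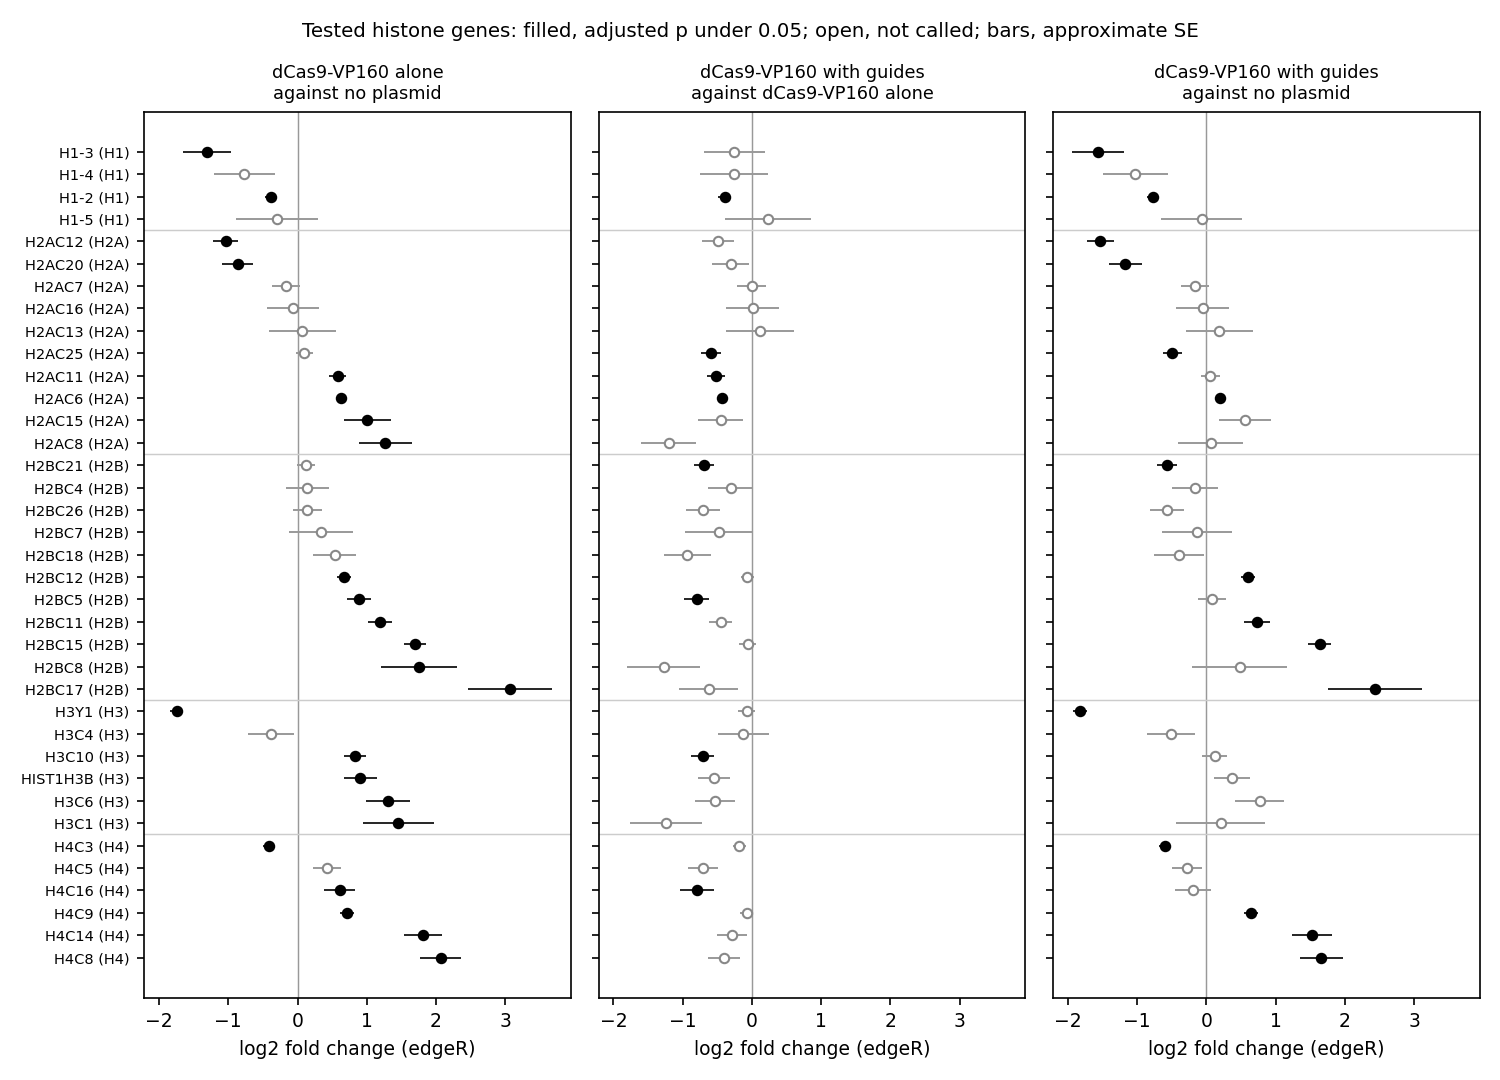
Log2 fold change with approximate SE of the 37 tested histone genes, ordered by class, for dCas9-VP160 alone against no plasmid (left), with guides against dCas9-VP160 alone (middle) and with guides against no plasmid (right). Filled points have an edgeR adjusted p under 0.05. On the left 18 are higher and 6 lower, in the middle 0 are higher and 8 lower, and on the right 8 are higher and 8 lower.

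The second comparison asks what the guides add to dCas9-VP160. The called histone genes were all lower with guides, by a modest amount, and most others leaned the same way. Of the 37 tested members 0 were higher, with 0 also at an unadjusted p under 0.05 and in DESeq2, and 8 were lower (21.6%) in edgeR, against 4.16% higher and 3.41% lower of all genes tested. The log2 fold change was negative in 34 of 37 members, with a median of -0.45 beside -0.0040 for all genes, and the median was -0.42 within experiment 1 and -0.45 within experiment 2. The called genes were H2AC6, H2AC11, H2AC25, H2BC5, H2BC21, H3C10, H4C16 and H1-2. DESeq2 called 1 member (H2AC6), beside 288 higher and 80 lower of the 9616 genes to which it gave an adjusted p. Without the experiment term no member was called, and of all 19662 genes 1 was higher and 0 lower. With library totals alone as the scaling, all genes split into 517 higher and 1122 lower, in place of 817 and 670.

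H2BC21 (chr1:149884459-149886652, minus strand), an H2B gene of cluster 2, had 5.78, 4.95, 6.62 and 6.12 CPM with guides, against 10.1, 7.46, 10.7 and 9.07 CPM with dCas9-VP160 alone. The groups do not overlap. It fell by 0.69 on the log2 scale (SE 0.14, edgeR adjusted p = 0.0032). H2AC25 (chr1:228456979-228457873, minus strand), an H2A gene of cluster 3, had 5.44, 6.78, 7.06 and 6.83 CPM, against 9.48, 8.19, 10.2 and 10.9 CPM. Its groups do not overlap either, and it fell by 0.59 (SE 0.14, edgeR adjusted p = 0.0094). H2AC6 had 24.7, 22.8, 28.7 and 25.2 CPM with guides, below all 4 libraries with dCas9-VP160 alone, and fell by 0.43 (SE 0.078, edgeR adjusted p = 8.2e-04). H2AC11 had 11.4, 8.18, 8.17 and 6.12 CPM with guides and fell by 0.52 (SE 0.13, edgeR adjusted p = 0.010), with overlap across experiments. H1-2 had 47.3, 38.6, 41.9 and 46.0 CPM with guides, which overlaps dCas9-VP160 alone in experiment 2, and fell by 0.39 (SE 0.094, edgeR adjusted p = 0.023). Over the 23 alternatives the highest adjusted p was 0.36 for H2BC21, 0.48 for H2AC25, 0.46 for H2AC6, 0.68 for H2AC11 and 0.55 for H1-2.

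H3Y1, H2BC12, H4C3 and H2AC20 were called with dCas9-VP160 alone against no plasmid but not here. H3Y1 had 8.61, 6.78, 7.95 and 7.54 CPM with guides, which overlaps dCas9-VP160 alone, and its log2 fold change was -0.08 (SE 0.13, edgeR adjusted p = 0.79). For H2BC12 the log2 value was -0.07 (SE 0.091, edgeR adjusted p = 0.74). H4C3 had 472, 394, 585 and 626 CPM with guides. Its log2 fold change was -0.37 in experiment 1, 4.1e-04 in experiment 2 and -0.18 in both (SE 0.091, edgeR adjusted p = 0.36). H2AC20 had 8.72, 4.20, 3.09 and 5.69 CPM with guides. Its log2 fold change was -0.31 (edgeR adjusted p = 0.59, SE 0.27), and 0.0023 without replicate 2 of experiment 1 with guides.

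The third comparison sets cells with guides against cells without plasmid, and it shares libraries with both others. Of the 37 members 8 were higher and 8 lower (21.6% each) in edgeR, against 26.7% higher and 25.9% lower of all genes tested. H3Y1 fell by 1.82 on the log2 scale (SE 0.10, edgeR adjusted p = 3.2e-14). H1-2 fell by 0.77 (SE 0.091, edgeR adjusted p = 6.8e-06), and its 4 libraries with guides lay below all 4 without plasmid. H4C3 fell by 0.60 (SE 0.091, edgeR adjusted p = 0.0047), again with no overlap between the groups.

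H1-3 had 9.17, 3.55, 3.31 and 5.55 CPM with guides and fell by 1.56 against cells without plasmid (SE 0.37, edgeR adjusted p = 0.027), but by 1.23 without replicate 2 of experiment 1 with guides, when it was no longer called (adjusted p = 0.065). H2AC12 had 6.57, 2.04, 2.43 and 1.85 CPM with guides and fell by 1.53 (SE 0.20, edgeR adjusted p = 5.0e-07), and by 1.12 without that library (adjusted p = 3.1e-05). H2AC20 fell by 1.17 (SE 0.24, edgeR adjusted p = 0.0022), and by 0.87 without it (adjusted p = 0.0011). Without that library 7 members were lower, and without replicate 1 of the same experiment 5 were.

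H2BC15 had 11.3, 9.25, 11.5 and 8.68 CPM with guides and rose by 1.64 (SE 0.16, edgeR adjusted p = 2.2e-09). H4C9 had 15.5, 16.5, 22.0 and 21.9 CPM and rose by 0.64 (SE 0.10, edgeR adjusted p = 5.8e-06). H2BC12 had 19.5, 17.4, 17.9 and 19.6 CPM and rose by 0.60 (SE 0.098, edgeR adjusted p = 9.6e-06). These 3 genes lay above all libraries without plasmid. H2AC6 rose by 0.20 (SE 0.083, edgeR adjusted p = 0.041), with overlapping libraries and a call in 8 of 23 settings. H2AC25 and H2BC21 were lower in this comparison, by 0.49 and 0.57 on the log2 scale.

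Experiments 1 and 2 differed in a few histone genes more than in nearly all other genes. The comparison of the experiments was chosen after the values were seen. At a mean of at least 5 CPM, 10 of 12875 genes (0.0777%) differed by more than 2-fold between the experiments in the edgeR fit, and 4 of these 10 are histone genes, out of 15 members at that level. They are H4C5 (log2 fold change of experiment 2 over 1 of -2.02, SE 0.18, adjusted p = 1.0e-05), H1-4 (-1.57, SE 0.39, adjusted p = 0.13), H2AC12 (-1.32, SE 0.16, adjusted p = 2.0e-06) and H2AC20 (-1.14, SE 0.20, adjusted p = 0.0023). Without replicate 2 of experiment 1 with guides the values were -2.20 for H4C5 (adjusted p = 8.2e-09), -1.76 for H1-4 (0.090), -1.44 for H2AC12 (5.5e-08) and -1.25 for H2AC20 (7.2e-06). At an adjusted p under 0.05 alone, 4 members were lower and 1 higher in experiment 2, 13.5% of 37 members, against 24.2% of all genes tested.

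H1-4 (chr6:26156354-26157107, plus strand), a linker histone gene, had 21.6 and 28.2 CPM in experiment 2 with guides, against 85.7 and 22.1 CPM in experiment 1. With dCas9-VP160 alone it had 19.2 and 12.3 CPM in experiment 2, against 87.1 and 86.1 CPM in experiment 1. Without plasmid it had 47.8 and 46.4 CPM in experiment 2, against 128 and 96.2 CPM in experiment 1. H4C5 (chr6:26204552-26206038, plus strand), an H4 gene, had 3.64 and 3.42 CPM in experiment 2 with guides, against 16.9 and 4.95 CPM in experiment 1. With dCas9-VP160 alone it had 3.28 and 3.16 CPM in experiment 2, against 19.3 and 24.3 CPM in experiment 1. Without plasmid it had 5.07 and 3.72 CPM in experiment 2, against 13.6 and 12.5 CPM in experiment 1. In both genes 5 of the 6 libraries of experiment 1 are high, and replicate 2 with guides is the low one.

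The gap between these technical replicates was -1.96 on the log2 scale (replicate 2 over 1) for H1-4, -1.77 for H4C5, -1.68 for H2AC12, -1.37 for H1-3 and -1.05 for H2AC20. It was -0.29 for H1-2 and -0.26 for H4C3, which are as abundant or more so. H3-3A, a replication-independent H3 gene outside the clusters, is also among the 10 genes and ran the other way, by 1.36 on the log2 scale (SE 0.12, adjusted p = 8.1e-09). There the library did not depart from its experiment, with 2.83 and 3.66 CPM in experiment 1 with guides, against 11.4 and 12.4 CPM in experiment 2. H3P6, another of the 10 genes and also with an H3 symbol, ran the same way as H3-3A (2.32, SE 0.15, edgeR adjusted p = 2.9e-11). Whether H3-3A shared reads with similar copies, or lost reads to them, was not tested. Of the 5 histone genes, H1-3, H2AC12 and H2AC20 have no annotated 3′ UTR, H1-4 has 57 bases and H4C5 has 1082 bases.

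**Figure D4:**
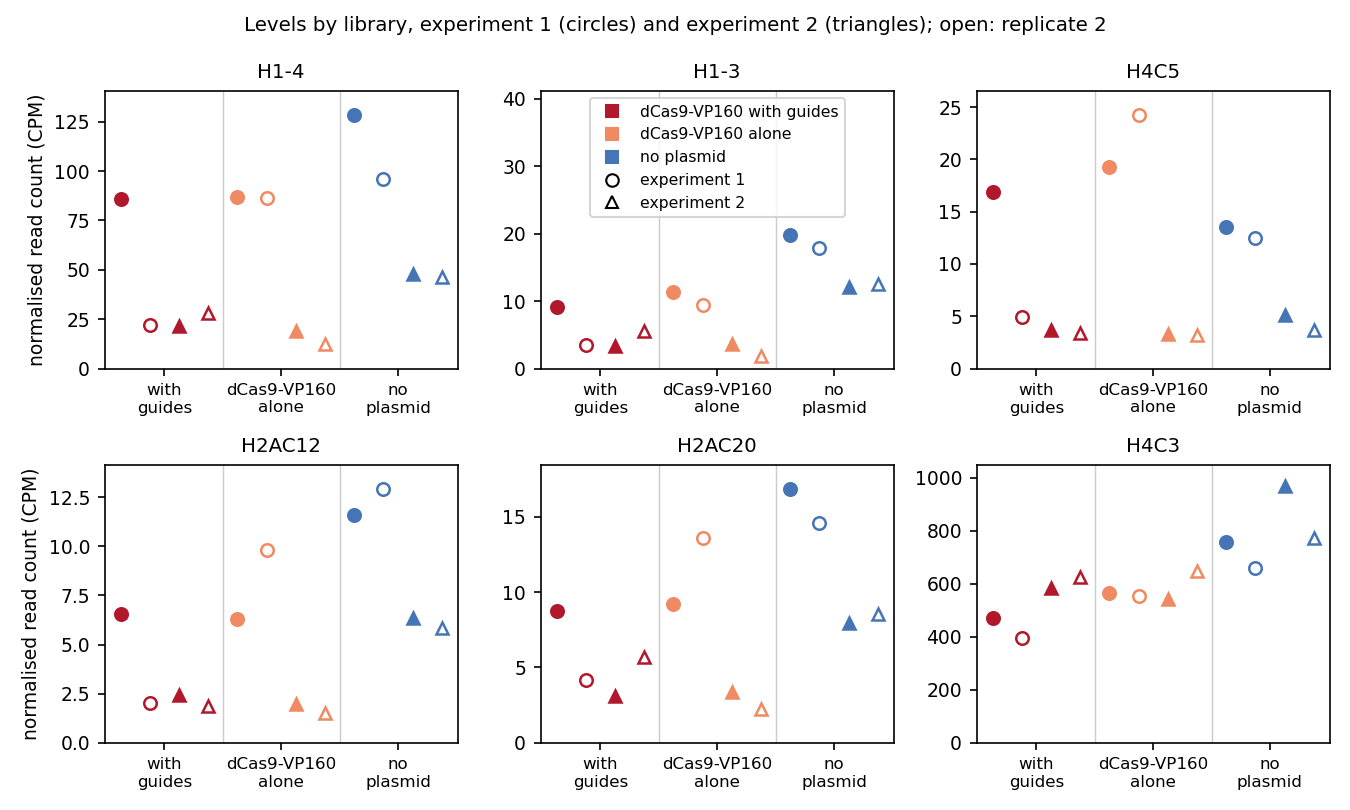
Normalised read count (CPM) of 6 histone genes in the 12 libraries, grouped from left to right as with guides, dCas9-VP160 alone and no plasmid. Circles are experiment 1, triangles experiment 2, and open symbols replicate 2. In the 5 genes other than H4C3 the circles lie above the triangles of their own group, except the open red circle, replicate 2 of experiment 1 with guides, which sits near the triangles.

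Whether the response to a treatment differed between experiments was tested by an interaction in edgeR on the 12 libraries, for 31 members. Its residual is the spread between technical replicates of 1 sample per group and experiment, and that includes the pair with guides of experiment 1 that stands apart. No member was called in any comparison, and the lowest adjusted p was 0.86. Of all 17975 genes in that fit, 0.0111% were called for dCas9-VP160 alone against no plasmid, 0% for guides against dCas9-VP160 alone and 0% for guides against no plasmid, so the count of 0 members is no result about the histone genes. At an unadjusted p under 0.05 there were 6 members for dCas9-VP160 alone against no plasmid, 4 for guides against dCas9-VP160 alone and 0 for guides against no plasmid, and no member was called with the other scaling either. H1-4 was not called with dCas9-VP160 alone (log2 fold change -0.77, SE 0.45, adjusted p = 0.30 in edgeR), with -0.34 in experiment 1 and -1.61 in experiment 2.

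The genes listed for making, processing and decay of histone messages were more often called higher than lower with dCas9-VP160 alone. This list also holds the cell-cycle genes CCNE1, CCNE2 and CDK2, and CCNE2 is on the S phase list below as well. Of its 25 genes, 15 were higher and 3 lower, beside 26.6% higher and 24.6% lower among all genes. Their median log2 fold change was 0.23, beside -0.0020 among all genes. SLBP averaged 255 ± 24.4 CPM with guides, 220 ± 22.7 CPM with dCas9-VP160 alone and 178 ± 18.7 CPM without plasmid (SD, n = 2 experiments each). It rose by 0.30 with dCas9-VP160 alone against no plasmid (SE 0.039, edgeR adjusted p = 2.7e-07), and by a further 0.22 with guides (SE 0.038, edgeR adjusted p = 5.8e-04). ZNF473, which links the U7 snRNP to the cut at the hairpin, rose by 0.92 with dCas9-VP160 alone (SE 0.050, edgeR adjusted p = 2.4e-14) and LSM10 of the same particle by 0.58 (SE 0.076, edgeR adjusted p = 3.3e-07). LSM1, of the ring that degrades histone and other messages, rose by 0.55, CASP8AP2, a partner of NPAT, by 0.48, and ERI1, an exonuclease that trims the hairpin, by 0.32, with edgeR adjusted p from 5.8e-09 to 3.8e-04. NPAT averaged 73.2 ± 1.53, 69.2 ± 8.12 and 68.7 ± 3.20 CPM with guides, with dCas9-VP160 alone and without plasmid, and LSM11 averaged 22.4 ± 0.470, 20.8 ± 0.555 and 22.9 ± 1.64 CPM. Neither was called with dCas9-VP160 alone against no plasmid (adjusted p of 0.87 and 0.18 in edgeR). With guides against dCas9-VP160 alone 4 of the 25 were higher and 3 lower (4.16% and 3.41% of all genes), led by SRRT (-0.31), CCNE2 (0.29) and PATL1 (-0.28). With guides against no plasmid 14 were higher and 3 lower (26.7% and 25.9% of all genes), led by ZNF473 (1.00), CASP8AP2 (0.59) and LSM10 (0.54).

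Histone variants encoded outside the clusters, which are made throughout the cell cycle or for special sites, moved in both directions. With dCas9-VP160 alone against no plasmid 4 of the 11 tested were called higher and 4 lower, and since 26.6% and 24.6% of all genes were, these few calls show nothing particular to the variants. H3-3A fell by 0.77 on the log2 scale (SE 0.14), CENPA, the H3 variant of centromeres, by 0.64 (SE 0.071) and H2AZ2 by 0.37 (SE 0.040), with edgeR adjusted p from 1.9e-08 to 3.1e-05. The limit on the reads of H3-3A given above applies here too. With guides against dCas9-VP160 alone 0 of 11 were called in edgeR or DESeq2, with 1 higher and 2 lower at an unadjusted p under 0.05. Of all genes, 4.16% were called higher and 3.41% lower in edgeR. With guides against no plasmid 5 were higher and 5 lower, beside 26.7% and 25.9% of all genes. Among the lower were H3-3A (-0.71), CENPA (-0.55) and H2AX (-0.48). Of 23 histone chaperones, which carry histones to DNA, 11 were higher and 6 lower with dCas9-VP160 alone, beside the same 26.6% and 24.6% of all genes. SPTY2D1 rose by 0.60 (SE 0.053), ASF1A by 0.42 (SE 0.058) and RBBP7 fell by 0.46 (SE 0.035), with edgeR adjusted p from 2.0e-11 to 1.0e-06. With guides against dCas9-VP160 alone 2 were higher and 2 lower (4.16% and 3.41% of all genes), led by ASF1B (0.25), SSRP1 (-0.17) and DAXX (-0.16). With guides against no plasmid 9 were higher and 8 lower (26.7% and 25.9% of all genes), led by SPTY2D1 (0.68), ASF1B (0.64) and RBBP7 (-0.55).

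Genes of DNA replication and of mitosis went opposite ways, and their values are given because histone messages follow the cell cycle. Among the 26 genes of the S phase list the count with dCas9-VP160 alone against no plasmid was 19 higher and 2 lower, beside 26.6% and 24.6% of all genes, and the median log2 fold change was 0.23. CDC6, a loader of the replicative helicase, rose by 0.88 (SE 0.039), TK1 by 0.56 (SE 0.039) and MCM7, a helicase subunit, by 0.52 (SE 0.033), with edgeR adjusted p from 3.0e-16 to 2.8e-12. Of 20 mitosis genes, 1 was higher and 15 lower, with a median of -0.32. KIF20A fell by 0.54, UBE2C by 0.51 and CCNB1 by 0.43, each with an SE of 0.039 to 0.044 and an edgeR adjusted p of 8.1e-11 to 8.5e-10. With guides against dCas9-VP160 alone, 11 genes of the S phase list were higher, against 4.16% of all genes, among them CDC6 (0.30), RRM2 (0.29) and CCNE2 (0.29). None was lower in edgeR or DESeq2, and 1 was at an unadjusted p under 0.05. In the same comparison 2 mitosis genes were higher (NUSAP1, 0.22, and TTK, 0.20) and 1 lower (CDC20, -0.16), beside 4.16% and 3.41% of all genes. With guides against no plasmid 22 replication genes were higher and 0 lower, beside 26.7% and 25.9% of all genes. At an unadjusted p under 0.05 and in DESeq2, 0 were lower as well. The largest changes were in CDC6 (1.17), TK1 (0.81) and MCM7 (0.64). Of the mitosis genes 16 were lower and 2 higher there, led by UBE2C (-0.54), NUSAP1 (0.52) and KIF20A (-0.51). In the same cells the summed level of the histone genes was lower with plasmid than without, but H4C3 supplied 68% of those counts. Without H4C3 the sums were 242 ± 25.1 CPM with guides, 316 ± 88.1 CPM with dCas9-VP160 alone and 332 ± 65.5 CPM without plasmid. The last pair differed by less than the spread between experiments. Single histone genes moved both ways, as given above. The relation between these gene groups was not tested.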

How the data were processed

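The authors deposited raw counts per gene for 12 libraries, made with SMART-Seq HT and Nextera XT from 1 ng of total RNA per the labels. The submitters' processing notes name Trim Galore 0.3.7, STAR 2.6.0c, Picard 2.17.1, DESeq2 1.16.1 and hg38. Neither the read counter nor the annotation release is stated. The members, gene lists and tests were chosen with earlier results of these data known.

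Technical replicates were summed, which gave 6 libraries. The test was the robust quasi-likelihood test of edgeR 4.0.16 (R 4.3.3) after filterByExpr and TMM scaling, with the experiment as a block, and Benjamini-Hochberg adjustment ran over 19662 genes, with calls at 0.05. At least 99.8% of counts were kept. Levels are TMM-scaled CPM and errors the SD of 2 experiments. The SE is the absolute log2 fold change over the square root of F. The labels tie each experiment number to its own batch of cells, and same-numbered libraries deviated together (correlation 0.616 to 0.631 over 12875 genes). The block takes out the difference that the groups share between experiments. The p-values therefore measure how far differences between groups varied over the 2 experiments. For the median gene that variance came mostly from other genes, with 2 residual against 24.0 prior degrees of freedom. A count of 0 allows up to 3 counts, or 0.250 to 0.439 CPM, for counting error only.

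Named members were, per comparison, the called ones with the 5 largest changes each way at a mean of at least 5 CPM, the highest per kilobase of each class, and H3Y1. Of the other lists the 3 largest called changes were named, and always SLBP, NPAT, CASP8AP2, LSM11 and ERI1. H1-4, H4C5 and H2BC17 were named after their values were seen. Alternatives included DESeq2 1.42.0, other scalings and left-out libraries. Of the 60604 identifiers 56812 matched GENCODE v29 and 56321 the gene name table, and 5 members carry only older symbols. The authors' table of differential expression was not used here.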

Additional observations from a re-analysis of the deposited data

Results flagged for a closer look

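Among 39 groups of 4 libraries (13 named histone genes in 3 groups), 1 library stood apart from the other 3 of its group. For 4 independent values chance alone marks about 1 in 20. The libraries here are technical pairs of 2 experiments, so that rate does not hold for them. H2AC12 had 6.57 CPM in replicate 1 of experiment 1 with guides, against 2.04 CPM in replicate 2 of the same experiment and 2.43 and 1.85 CPM in experiment 2. The gap to the nearest library was 0.878 of the range. With dCas9-VP160 alone H2AC12 had 6.29 and 9.80 CPM in experiment 1. The flagged library thus stood near those of its experiment, and replicate 2 did not.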

How the results depend on the processing

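Over 23 alternative settings, the members called with dCas9-VP160 alone against no plasmid numbered 15 in DESeq2 (11 higher) and 13 in experiment 1 alone (9 higher), in place of 24 (18 higher, 6 lower). Leaving out libraries gave 10 to 19 higher and 2 to 7 lower, with 2 lower without replicate 1, 3 lower without replicate 1 with guides of either experiment, and 10 higher without replicate 2. With guides against dCas9-VP160 alone, in place of 0 higher and 8 lower, the counts were 0 higher and 1 lower in DESeq2, 5 lower in experiment 1 alone, and 1 higher (H1-4) and 0 lower in experiment 2 alone. Leaving out both libraries with guides of experiment 1, a setting chosen after seeing the data, gave 1 lower, and leaving out other libraries gave 2 to 10 lower, with 2 lower without replicate 1 and 4 without replicate 2. With guides against no plasmid, in place of 8 higher and 8 lower, DESeq2 called 10 (5 higher and 5 lower), leaving out both libraries with guides of experiment 1 gave 5 lower, and other left-out libraries gave 5 to 10 lower, with 5 lower without replicate 1 or without replicate 1 with guides of experiment 1. Each fit of 1 experiment alone compares technical replicates of 1 sample per group. The causes were not tested, beyond the fewer libraries in the settings that leave some out.

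Without the replicate block 15 members were higher and 1 lower with dCas9-VP160 alone against no plasmid, 0 were called with guides against dCas9-VP160 alone, and 7 were higher and 5 lower with guides against no plasmid. Over all genes the calls without the block were 3036 higher and 2528 lower, 1 higher and 0 lower, and 3229 higher and 2869 lower, in place of 5234 and 4836, 817 and 670, and 5245 and 5102. In DESeq2 the calls over all genes were 3327 higher and 2529 lower, 288 and 80, and 3623 and 2679. They were out of 19553, 9616 and 19553 genes with an adjusted p.

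The differences whose direction turned were not called in the report. With guides against dCas9-VP160 alone, H3Y1 was at 0.038 on the log2 scale in experiment 1 alone and at -0.31 to 0.16 with libraries left out, H4C3 was at 0.020 in experiment 2 alone, and H2AC20 was at 0.62 in experiment 2 alone, at 0.16 without the guides of experiment 1 and at -0.55 to 0.0023 with libraries left out. With dCas9-VP160 alone against no plasmid, NPAT was at -0.069 in experiment 1 alone and at -0.045 to 0.083 with libraries left out, and LSM11 at -0.29 to 0.022. For named members 584 values kept their direction and call, 91 lost the call and 3 gained it, and for other named genes 1197 kept both and 108 lost the call. Of 42 class sums under the other 2 scalings, 39 moved by less than the SD. With library totals alone H2B was at 47.2 CPM with guides and 61.0 CPM with dCas9-VP160 alone, and H3 at 22.8 CPM with dCas9-VP160 alone. Genes of few reads, 22 of the 37 under 5 CPM, limit what these depths can show.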
